A study of Mus musculus with 24 samples.

Results

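miR-151 is a microRNA whose hairpin precursor gives a mature strand from each side of its stem, miR-151-5p (mmu-miR-151-5p in the table, 1657 CPM on average in controls) and miR-151-3p (mmu-miR-151-3p, 1087 CPM). These mature miRNAs are 2 of the 1966 that the deposited counts cover, and both passed the filter on low counts that left 252 miRNAs (at least 10 CPM, counts scaled to 1000000 per library, in at least 12 of the 24 libraries). The pair was selected on measured values of the same comparisons, namely the levels and the ratio of the arms in the groups. Their levels, fold changes and ratio are therefore a description, and no p of them is printed or read as a test. Some counts of calls, or of an unadjusted p under 0.05, include the members, and their part in such counts is no test.

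Small RNA of extracellular vesicles (EVs) from mouse serum was sequenced, with 1 library per mouse. The 24 libraries came from wild type C57BL/6 mice aged 14 to 16 weeks, 6 without surgery (Control) and 6 each at 6, 24 and 72 h after surgery (S6h, S24h and S72h). In the surgery, done under isoflurane and buprenorphine, the tibia was broken in an open procedure and stabilized with a pin. EVs were isolated with ExoQuick ULTRA, which precipitates them from serum. According to the methods of the study, the control mice of these libraries belong to the 6 h arm of the experiment and received saline, while the S24h and S72h mice were given further analgesia each day and had a control set of their own, which was not analysed here. Surgery, anaesthesia and analgesia therefore cannot be told apart in any of the comparisons, nor can time after surgery and the daily analgesia. The methods also state that each control set came from the batch of its surgery mice, so that animal batch may differ at 24 and 72 h. The study reports no statistical difference between these Control mice and the other control set. All 3 comparisons share the same 6 Control libraries.

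A miRNA hairpin is cut by Drosha and then by Dicer to a short duplex of both arms. As a rule 1 strand is loaded into an Argonaute protein and represses mRNAs that pair with its seed, whereas the other is degraded, and which arm prevails can differ between tissues. miR-151 lies in an intron of the gene of focal adhesion kinase, a kinase of cell adhesion and migration, and is best known from work on the migration of tumour cells. In the Gencode annotation of GRCm38 the hairpin gene Mir151 (ENSMUSG00000065612.1) lies on the minus strand at chr15:73254815-73254882. It sits within Ptk2 (ENSMUSG00000022607.17, chr15:73205102-73423280), on the same strand. Of the 15 annotated Ptk2 transcripts 5 span the hairpin, 0 Ptk2 exons overlap it, and the nearest exon is 2152 bases away.

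miR-151-5p, the more abundant arm, had a higher mean level in the EVs of the 24 and 72 h mice. Among the Control libraries it ranged from 1087 to 3065 CPM with a median of 1354, from 114 to 286 counts. At 6 h it ranged from 657 to 2774 CPM with a median of 2091, at 24 h from 2425 to 4396 CPM with a median of 3698, and at 72 h from 1845 to 4102 CPM with a median of 2930. Each of the 6 S24h and the 6 S72h libraries lay above the Control median, and 5 of the S24h and 2 of the S72h libraries lay above the highest Control library. That library, Control replicate 2, stood above the other 5, which reached at most 1887 CPM. Means were 1657 ± 743 CPM in Control, 1778 ± 828 at 6 h, 3626 ± 755 at 24 h and 3092 ± 849 at 72 h (SD, n = 6). Control and S6h thus differed by less than the spread between mice, and so did S24h and S72h. In EVs from serum, as in any bulk sample, more or fewer cells or vesicles of a type and more or less RNA in each cannot be told apart.

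Of the 2 arms, 0 had CPM values that did not overlap those of Control, at any of the 3 time points. Over the 252 miRNAs the share without overlap in either direction was 0% for S6h, 4.76% for S24h and 1.19% for S72h. The 3 miRNAs behind the last share, named here after their values were seen, were miR-434-3p, miR-16-5p and miR-511-5p.

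miR-151-3p, the less abundant arm, had its highest mean in Control. Its level there ranged from 513 to 1689 CPM with a median of 952, from 49 to 263 counts. At 6 h it ranged from 607 to 1082 CPM (median 725), at 24 h from 447 to 1020 CPM (median 797) and at 72 h from 424 to 1192 CPM (median 818). Control replicates 2 and 5, with 1642 and 1689 CPM, exceeded each of the 18 surgery libraries, whereas the other 4 Control libraries lay among them. The means were 1087 ± 477 CPM in Control, 772 ± 175 at 6 h, 767 ± 230 at 24 h and 785 ± 270 at 72 h (SD, n = 6). The 3 surgery groups differed from one another by at most 18.0 CPM, far less than their spread, and each differed from Control by less than the SD of Control.

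**Figure D1:**
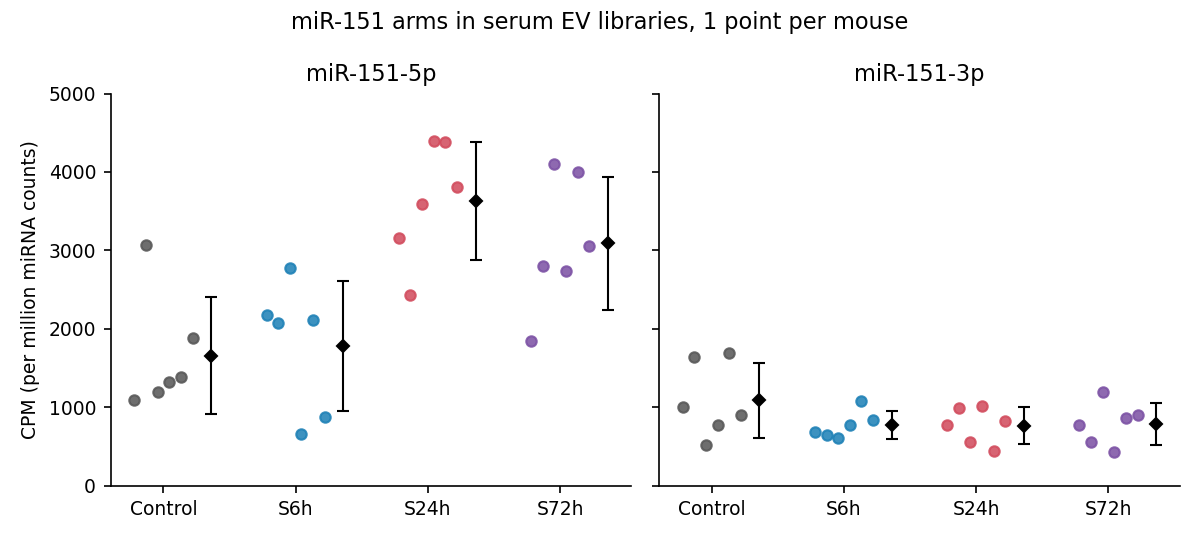
CPM of miR-151-5p and miR-151-3p on 1 linear axis from 0, with 1 point per mouse and, beside each group, the mean ± SD as a black diamond (n = 6). The 5p values at 24 h (2425 to 4396 CPM) lie mostly above those of Control (1087 to 3065 CPM), while the 3p values of all groups overlap.

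On the scale of library sizes corrected by TMM, the fitted log2 fold change of miR-151-5p was 0.15 (SE 0.30) in S6h against Control, 1.0 (SE 0.30) in S24h and 0.99 (SE 0.30) in S72h. For miR-151-3p it was -0.40 (SE 0.32), -0.64 (SE 0.32) and -0.41 (SE 0.32). The 5p value was positive and the 3p value negative at each time, also with RLE scaling, with library totals alone and with DESeq2. In the same edgeR quasi-likelihood model, adjusted over all 252 miRNAs by the Benjamini-Hochberg method, 30 (11.9%) were called at 24 h, 10 of them higher. Those 10 include miR-151-5p, which was chosen on these values, so that its part in them is no test. A call needed an adjusted p below 0.05 together with a change of 1.5-fold or more. At 72 h 9 (3.57%) were called, 5 of them higher, and at 6 h 0 (0%), with 9 miRNAs at an unadjusted p under 0.05 and 0 called by DESeq2. Neither arm was among the 9 edgeR calls at 72 h, and edgeR did not call miR-151-3p at any time, which is no test either. With RLE scaling 18 of 37 calls at 24 h were higher and with library totals alone 17 of 37. At 72 h library totals alone gave 2 calls, miR-143-3p and miR-511-5p, both lower. Scaling also moved the middle of the distribution, as the median fitted log2 change of the 252 miRNAs at 24 h was -0.21 with TMM, -0.06 with RLE and -0.03 with library totals alone. Relative to the TMM median, miR-151-5p lay above it and miR-151-3p below it.

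By mean CPM, miR-151-5p ranked 69 among the 446 miRNAs with a count in Control, 66 of 493 at 6 h, 47 of 410 at 24 h and 53 of 480 at 72 h. miR-151-3p ranked 79, 88, 80 and 83 in the same groups. The arms together made up 2744 ± 1084 CPM in Control, 2550 ± 797 at 6 h, 4393 ± 709 at 24 h and 3877 ± 1032 at 72 h (SD, n = 6). The most abundant miRNA was miR-486b-5p in Control (80239 CPM), miR-1a-3p at 6 h (125571 CPM) and miR-21a-5p at 24 h (78454 CPM) and at 72 h (76002 CPM).

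The ratio of the arms within a library needs no scaling, since both counts share the library. Ligation and PCR act differently on different sequences, so that it is a ratio of counts and not of molecules. It was computed as the log2 of 5p over 3p counts, with 0.5 added to each. In Control it ranged from -0.29 to 1.21 with a median of 0.83 and at 6 h from -0.23 to 2.18 with a median of 1.32. At 24 h it ranged from 1.29 to 3.27 with a median of 2.15 and at 72 h from 1.25 to 2.68 with a median of 1.99. The lowest S24h and S72h libraries thus lay just above the highest Control library, and the groups did not overlap, whereas 3 of the 6 S6h libraries lay within the range of Control. Over the 50 pairs of arms described below, the share without overlap was 2% at 24 h and 2% at 72 h. miR-151 was chosen for this ratio, so nothing is read from its lack of overlap. The 5p arm had more counts than the 3p arm in 22 of the 24 libraries, the exceptions being Control replicate 5 and S6h replicate 4.

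The mean log2 ratio was 0.63 ± 0.59 in Control, 1.05 ± 0.97 at 6 h, 2.26 ± 0.67 at 24 h and 2.0 ± 0.50 at 72 h (SD, n = 6). It exceeded that of Control by 0.42 in S6h, by 1.64 in S24h and by 1.37 in S72h (SE 0.50 each). In order of the means, S24h and S72h differed by less than their spread, and so did S6h and Control, while the S72h mean stood 0.94 above the S6h mean, about the SD at 6 h. As geometric means, 1.55 counts of the 5p arm stood against each 3p count in Control, 2.07 at 6 h, 4.80 at 24 h and 3.99 at 72 h.

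As a share of the counts of both arms, miR-151-5p held 60.5 ± 9.78% in Control, 66.2 ± 14.8% at 6 h, 82.0 ± 6.66% at 24 h and 79.6 ± 5.74% at 72 h (SD, n = 6). Control replicate 3, the highest of its group, had 69.9% of 163 counts, with a 95% Wilson interval from 62.5 to 76.5%. S72h replicate 1, the lowest of its group, had 70.4% of 642 counts (66.8 to 73.8%), and S24h replicate 2 had 71.0% of 252 counts (65.1 to 76.3%). These intervals overlap, so at this depth the order of the libraries at the edge of the groups is not resolved. At the other end, S24h replicate 5 had 90.7% of 356 counts (87.3 to 93.3%), and Control replicate 5 had 45.0% of 400 counts (40.2 to 49.9%). Such intervals cover counting error only, since reads copied by PCR are not independent molecules.

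**Figure D2:**
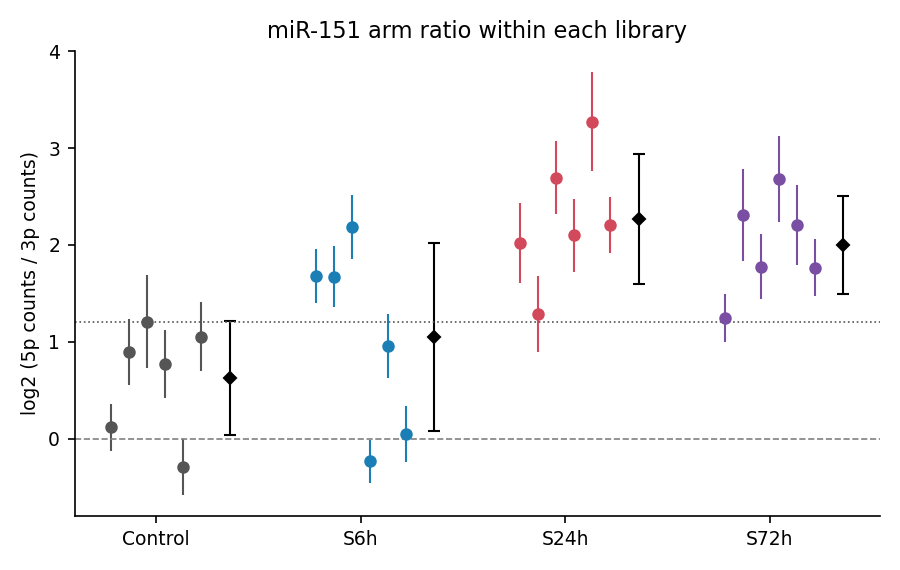
Log2 ratio of miR-151-5p to miR-151-3p counts, with 1 point per mouse, its 95% counting interval as a coloured bar and the group mean ± SD as a black diamond (n = 6). The dotted line marks the highest Control library (1.21), above which all 6 S24h and all 6 S72h libraries lie, and the dashed line marks equal counts.

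With each read taken as an independent molecule, counting error was a small part of the spread between mice. PCR copies would raise this part by an amount that was not measured. The SD expected from counting alone was 0.18 in Control, 0.15 at 6 h, 0.20 at 24 h and 0.19 at 72 h on the log2 scale, or 9.27%, 2.41%, 9.18% and 14.4% of the variance of the ratio. The S6h group was the most spread. Its replicates 1, 2 and 3 had ratios of 1.68, 1.67 and 2.18, replicate 5 had 0.96, and replicates 4 and 6 had -0.23 and 0.05. Replicates 4 and 6 were also the libraries with the most counts at 6 h, 471801 and 226595.

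Library depth moved with some of these values. The libraries held from 63956 to 263211 counts in Control, from 102568 to 471801 at 6 h, from 66652 to 143856 at 24 h and from 65017 to 245013 at 72 h. The deepest library of the Control, S6h and S72h groups had the lowest miR-151-5p CPM of its group, with 1087, 657 and 1845 CPM, whereas the deepest S24h library, with 3802 CPM, did not. At 6 and 72 h the deepest library also had the lowest arm ratio. An alternative chosen after seeing the data left out the deepest library of each group. The ratio then differed from Control by 0.58 at 6 h, 1.55 at 24 h and 1.42 at 72 h. With all libraries these differences were 0.42, 1.64 and 1.37. The part of library depth in these values was not tested.

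Ratios of the same kind were computed for all 50 pairs of arms that passed the filter, and compared with limma. At 24 h limma called 1 pair (2%), miR-145a, whose ratio was 5.95 ± 1.01 in S24h and 3.03 ± 1.81 in Control (SD, n = 6), higher than the Control median in 6 of 6 mice (limma, difference 2.92, SE 0.73, adjusted p = 0.0270). At 6 h limma called 0 pairs (0%), with 0 at an unadjusted p under 0.05, and at 72 h 0 pairs (0%), with 4 at an unadjusted p under 0.05. At 24 h 7 pairs had an unadjusted p under 0.05. The counts of 7 and 4 include miR-151, which was chosen on these values, so that its part in them is no test. The call of miR-145a was lost with any of 7 single mice left out.

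Non-overlap of the ratio with Control was found in 1 of the 50 pairs (2%) at 24 h and in 1 (2%) at 72 h, both times miR-151 itself, and in 0 (0%) at 6 h. miR-151 was chosen for this ratio, so nothing is read from that count. By size, the difference of miR-151 stood at place 20 of 50 at 6 h, 11 at 24 h and 5 at 72 h, counted from the largest rise. Its standard error was the third smallest of the 50, 0.50 against a median of 1.15. Over all 50 pairs the median difference was 0.24 in S6h, 0.09 in S24h and 0.06 in S72h, and 26 of them were positive at 24 h. In 13 of the 50 pairs at 24 h the fitted fold change was positive for the 5p arm and negative for the 3p arm, as for miR-151, and in 6 it was the reverse. At 6 h these counts were 9 and 12, and at 72 h they were 10 and 9, while miR-151 was among the former each time.

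Apart from miR-145a, the pairs with the largest differences at 24 h had few counts in 1 arm. The largest positive differences were those of miR-23a (3.47, SE 1.37), miR-145a and miR-434 (2.60, SE 1.31), and the largest negative ones those of miR-335 (-2.56, SE 1.14), miR-10b (-2.12, SE 1.27) and miR-93 (-1.99, SE 1.32). Of these 6 pairs limma called miR-145a alone. The scarcer arm had a mean of 16.9 counts per library for miR-23a, 13.5 for miR-434, 9.17 for miR-335, 10.3 for miR-10b and 14.2 for miR-93, against 116 for miR-151-3p. Among the 16 pairs whose arms both had a mean of at least 20 counts, miR-151 stood at place 4 at 24 h, after miR-145a, miR-22 and miR-674, and at place 2 at 72 h, after miR-22.

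**Figure D3:**
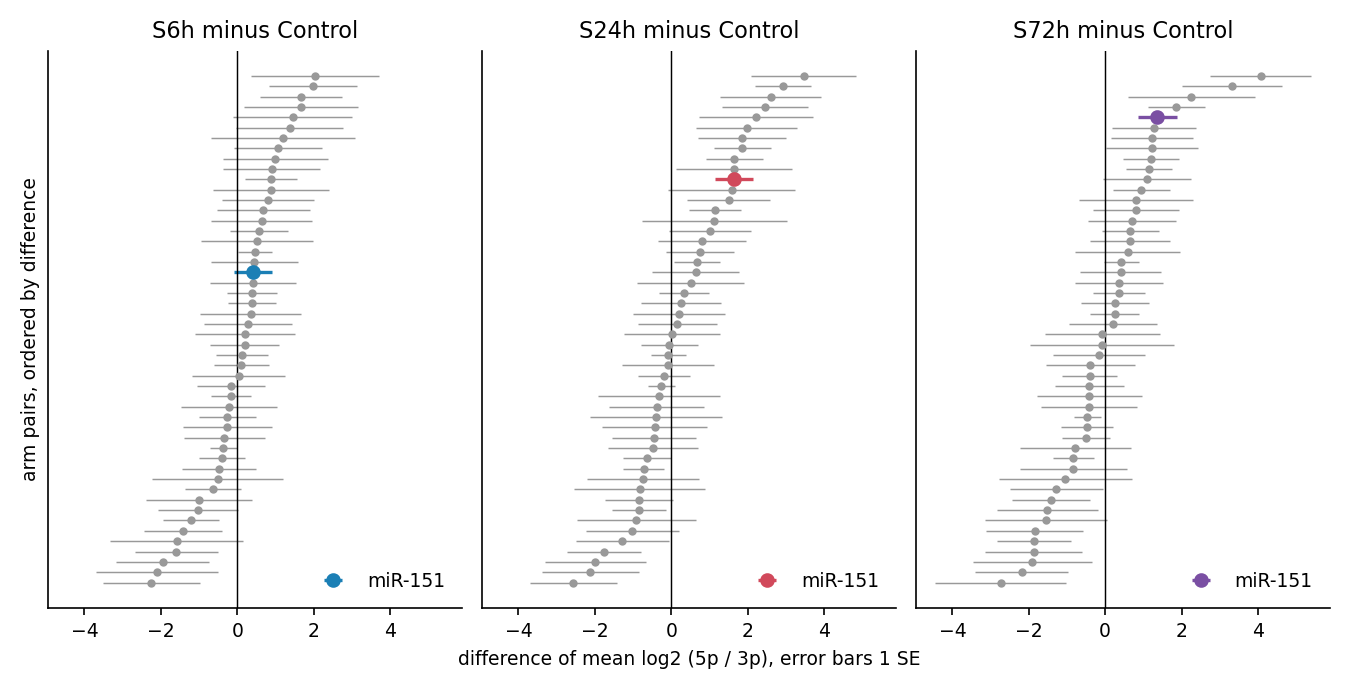
Difference from Control of the mean log2 ratio of 5p to 3p counts for 50 pairs of arms, ordered by size in each panel, with bars of 1 SE from limma. miR-151 (coloured) lies at 0.42, 1.64 and 1.37 in the S6h, S24h and S72h panels, with a bar shorter than most.

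Relative to other miRNAs of the same library, the arms behaved differently. miR-103-3p, which the study chose for stable expression as the housekeeping miRNA of its qPCR, and miR-191-5p are often taken as references of scale in blood. Their own means were higher at 24 and 72 h, with 1584 ± 581, 1627 ± 555, 2608 ± 463 and 2824 ± 869 CPM for miR-103-3p in Control, S6h, S24h and S72h (SD, n = 6). For miR-191-5p they were 33585 ± 12998, 28387 ± 9343, 56558 ± 10002 and 58976 ± 14881 CPM (SD, n = 6). edgeR called neither of them in any of the 3 comparisons, whereas DESeq2 called miR-191-5p at 24 and 72 h and miR-103-3p at 72 h, all higher. Over miR-103-3p, the mean log2 ratio of miR-151-5p was 0.05 ± 0.48 in Control, 0.04 ± 0.32 at 6 h, 0.47 ± 0.37 at 24 h and 0.14 ± 0.17 at 72 h (SD, n = 6). Its differences from Control, 0.42 at 24 h and 0.09 at 72 h, were thus smaller than the spread in Control, and 2 of 6 S24h and 0 of 6 S72h libraries exceeded the highest Control library. Over miR-191-5p the differences were 0.34 at 24 h and 0.06 at 72 h.

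For miR-151-3p the ratios to the references were lower than in Control. Over miR-103-3p its mean log2 ratio was -0.58 ± 0.54 in Control, -1.02 ± 0.72 at 6 h, -1.80 ± 0.66 at 24 h and -1.86 ± 0.38 at 72 h (SD, n = 6). All 6 libraries at 24 h and all 6 at 72 h lay below the Control median, and 3 and 5 of them lay below the lowest Control library. Over miR-191-5p the mean differences from Control were -1.30 at 24 h and -1.31 at 72 h. All 6 libraries of each group again lay below the Control median, but only 2 at 24 h and 1 at 72 h lay below the lowest Control library. At 24 and 72 h the 5p arm thus carries the larger difference on library totals and the 3p arm on these references, while the ratio of the arms does not depend on the scale. The mean CPM of both references were themselves higher at these times, and miR-103-3p is the miRNA that went most closely with miR-151-5p (below). How much of the differences over a reference comes from the reference itself was not tested.

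The miRNAs whose log2 CPM went most closely with each arm over the 24 libraries were different ones for the 2 arms. They were taken from the 250 other miRNAs that passed the filter, with 4 CPM added, and the correlations are given as a description, because all libraries share the scaling to CPM. For miR-151-5p they were miR-103-3p (r = 0.88), miR-26a-5p (0.87), let-7f-5p (0.84), let-7a-5p (0.84) and miR-26b-5p (0.82). After the group means were subtracted, these were 0.79, 0.75, 0.78, 0.75 and 0.70. For miR-151-3p they were miR-148b-3p (r = 0.63), miR-501-3p (0.59), miR-218-5p (0.53), miR-146b-5p (0.52) and miR-25-3p (0.51), or 0.61, 0.60, 0.63, 0.50 and 0.48 within groups. The arms themselves had an r of -0.08 with each other, and 0.14 within groups. By this measure miR-151-3p stood at place 124 of 251 in likeness to miR-151-5p. The fitted log2 fold changes at 24 h were 0.58, 1.02, 0.80, 0.77 and 0.73 for the miRNAs most like the 5p arm. For those most like the 3p arm they were -0.69, -0.51, -3.72, -0.83 and -1.29, but miR-218-5p had counts in only 1 of the 6 S24h libraries, so that the size of its value is uncertain. The correlations that chose these miRNAs include the differences between groups, so that a direction shared with the arm is partly fixed by the choice.

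The relatives of miR-151, with hairpins of similar sequence, are miR-28a, miR-28b, miR-28c and miR-708. Of their 6 mature miRNAs 2 passed the filter, the arms of miR-28a, and 3 had 0 counts in all libraries, miR-28b, miR-28c and miR-708-5p. In the shallowest library a count of 0 allows up to 3 counts, or 46.9 CPM, and in the deepest 6.36 CPM. miR-708-3p had at most 15 counts in any library. The miR-28a arms were scarcer than those of miR-151. miR-28a-5p had 124 ± 80.2 CPM in Control, 132 ± 84.2 at 6 h, 141 ± 125 at 24 h and 270 ± 199 at 72 h (SD, n = 6). miR-28a-3p had 135 ± 166 CPM in Control, 185 ± 88.9 at 6 h, 108 ± 101 at 24 h and 62.9 ± 32.5 at 72 h (SD, n = 6).

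Neither arm of miR-28a was called by edgeR at any time, and each had 0 comparisons at an unadjusted p under 0.05. DESeq2 called 0 as well, and at 72 h it gave no adjusted p for either. For miR-28a-5p the log2 fold change was 0.23 (SE 0.84) at 6 h, 0.05 (SE 0.84) at 24 h and 1.22 (SE 0.85) at 72 h, where 6 of 6 mice exceeded the Control median (edgeR, adjusted p = 0.463). For miR-28a-3p it was 0.55 (SE 0.90), -0.47 (SE 0.91) and -0.92 (SE 0.92), with 1 of 6 mice above the Control median at 72 h (edgeR, adjusted p = 0.658). With these errors a change of the size seen in miR-151 could not have been told from no change. The log2 ratio of the miR-28a arms was 0.65 ± 1.72 in Control, -0.95 ± 2.64 at 6 h, 0.20 ± 2.03 at 24 h and 1.92 ± 1.06 at 72 h (SD, n = 6), a wider spread than that of miR-151, and limma did not call its differences.

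Of the 8 names, 5 matched an entry of mature sequence in RefSeq (GRCm38.p6). The unmatched names were miR-151-5p, miR-151-3p and miR-28c. The sequences of the relatives are shown because they tell which of the matched miRNAs share a seed, bases 2 to 8 of the mature strand, given in capitals. miR-28a-5p (chr16:24827868-24827889, plus strand) and miR-708-5p (chr7:96249450-96249472, plus strand) share theirs:
miR-28a-5p: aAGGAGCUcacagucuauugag
miR-708-5p: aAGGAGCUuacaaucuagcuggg
The opposite arms, miR-28a-3p (chr16:24827908-24827929, plus strand) and miR-708-3p (chr7:96249496-96249517, plus strand), have a seed each, and so has miR-28b (chr8:73016523-73016543, plus strand), which had 0 counts:
miR-28a-3p: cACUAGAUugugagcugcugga
miR-708-3p: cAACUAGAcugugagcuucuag
miR-28b: aGGAGCUCacaaucuauuuag
Counts of the 2 miRNAs that share a seed were unequal, as miR-28a-5p had from 0 to 108 counts per library and miR-708-5p had 0.

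Lists of miRNAs that mark blood cells and tissues give the make-up of the same libraries. The 5 erythroid miRNAs, all measured and led by miR-486b-5p, summed to 143099 ± 32433 CPM in Control, 105817 ± 21419 at 6 h, 66583 ± 38205 at 24 h and 82070 ± 49573 at 72 h (SD, n = 6). At 24 h edgeR called 3 of the 5, miR-451a, miR-486a-5p and miR-486b-5p, all lower, and DESeq2 called miR-144-3p in addition. At 72 h edgeR called 0 of the 5, with 2 at an unadjusted p under 0.05, while DESeq2 called miR-486a-5p and miR-486b-5p, both lower. At 6 h both tools called 0, with 0 at an unadjusted p under 0.05. The 5 skeletal muscle miRNAs, led by miR-1a-3p, summed to 55761 ± 20016 CPM in Control and 152917 ± 84547 at 6 h, then 30182 ± 10428 at 24 h and 60069 ± 88386 at 72 h (SD, n = 6). S72h replicate 1, the 72 h library with the lowest arm ratio, had 237383 CPM, and without it the 72 h mean was 24606 ± 18252 CPM (SD, n = 5), below that of Control instead of above it. The 2 liver miRNAs, nearly all miR-122-5p, summed to 77443 ± 78186 CPM in Control, 12701 ± 9685 at 6 h, 23757 ± 17553 at 24 h and 56845 ± 119033 at 72 h (SD, n = 6). The Control libraries were split, as replicates 1, 4 and 6 had from 127095 to 160092 CPM and replicates 2, 3 and 5 from 3706 to 9976. S72h replicate 4, with the highest arm ratio at 72 h and the lowest TMM factor of the 24 libraries (0.599), had 299754 CPM for the liver sum, the other 5 had from 4768 to 13192, and without it the 72 h mean was 8263 ± 3106 CPM (SD, n = 5). Of the liver miRNAs miR-122-5p alone passed the filter, so that the other, miR-122-3p, was not tested. edgeR and DESeq2 each called 0 of the 5 muscle miRNAs and did not call miR-122-5p at any time, with 2 muscle miRNAs and miR-122-5p at an unadjusted p under 0.05 at 6 h and 0 later.

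The sum for platelet and endothelial cells varied less between groups, whereas that for leukocytes had its lowest mean at 6 h and its highest at 24 h. The 4 platelet and endothelial miRNAs, led by miR-126a-3p, summed to 7484 ± 2286 CPM in Control, 8996 ± 1466 at 6 h, 8689 ± 2660 at 24 h and 8266 ± 2949 at 72 h (SD, n = 6). This sum joins members whose fitted changes had opposite signs. At 24 h the log2 fold change was 0.58 for miR-126a-5p and 0.64 for miR-126a-3p, but -1.26 for miR-223-5p and -0.80 for miR-223-3p. At 72 h these values were 0.77, 0.62, -0.79 and -0.39. The 4 leukocyte miRNAs, led by miR-142a-5p, summed to 5345 ± 2130, 3669 ± 1327, 7161 ± 2989 and 4659 ± 2446 CPM (SD, n = 6). Both tools called 0 of these 8 miRNAs at every time, with 1 platelet or endothelial miRNA at an unadjusted p under 0.05 at 24 h and 1 leukocyte miRNA at 6 h. Every marker list had 0 members at 0 counts in any group. Erythroid counts were thus lower in the groups where miR-151-5p and the arm ratio were higher, and all CPM of a library share 1 total. Their part in the levels of miR-151 was not tested.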

How the data were processed

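The authors trimmed the reads (cutadapt), mapped them to GRCm38 (Bowtie), kept those as long as a mature miRNA and obtained counts per miRBase entry (featureCounts). The submitters' processing notes also name SAMtools. The deposited values are whole-number counts without normalization, and molecular identifiers were not used to collapse reads as far as the sources used here state. The members and all lists were chosen with earlier results of these data known. CPM were computed from column totals (63956 to 471801 counts). Fold changes come from 1 edgeR 4.0.16 quasi-likelihood model of all 4 groups with TMM scaling (R 4.3.3), arm ratios of 50 pairs from limma 3.58.1, and DESeq2 1.42.0 was an alternative. Python 3.11.15 was used for the remaining values. Named miRNAs are the members, their relatives, the 5 miRNAs most correlated with each arm, the 3 arm pairs with the largest rise and the 3 with the largest fall at 24 h, 2 references of scale and the leading miRNA of each marker list. Other miRNAs are named after their values were seen. 0 pairs of libraries were identical. Alternatives concerned scaling, filter, test, pseudocount, libraries fitted, a replicate block and leaving out each mouse.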

Additional observations from a re-analysis of the deposited data

How the results depend on the processing

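The differences of the miR-151 arm ratio and the fold changes of both arms moved by less than the spread between mice in every alternative run, and each kept its sign. With a mouse left out in turn, the ratio difference ranged from 0.20 to 0.68 at 6 h, from 1.43 to 1.83 at 24 h and from 1.19 to 1.52 at 72 h. For miR-151-5p the log2 fold change was from 0.00 to 0.37, from 0.91 to 1.23 and from 0.92 to 1.22, so that at 6 h it fell to near 0 without S6h replicate 3, and that of miR-151-3p from -0.54 to -0.24, from -0.78 to -0.45 and from -0.56 to -0.28. The lowest ratio difference at 24 and 72 h outside these came from group medians, 1.32 and 1.16. The numbers of calls were less stable, and the cause was not tested. Called miRNAs at 24 h were 50 with DESeq2, and from 20 to 42 with a mouse left out. At 72 h they were 21 with DESeq2, 2 with library totals alone, 0 with only the 2 groups compared, 1 (miR-143-3p) with the deepest library of each group left out, and from 1, without Control replicates 2 or 5 or S72h replicate 5, to 14, without S72h replicate 1. At 6 h they were 2 (miR-1a-3p and miR-122-5p) without a filter beyond 1 count. Called arm pairs at 24 h were 0 by the exact permutation test, 2 of 16 (miR-145a and miR-151, which was chosen on these values, so that its call is no test) with a mean of at least 20 counts, 7 of 173 with at least 1 count and 2 (miR-145a and miR-10a) without the deepest libraries. With a mouse left out they ranged from 0, without Control replicates 4, 5 or 6 or S24h replicates 1, 3, 5 or 6, to 2 (again miR-145a and miR-151), without S24h replicate 2, where the call of miR-151 is no test either. At 72 h they were 3 of 173 (miR-299a, miR-511 and miR-148a) with at least 1 count. The permutation test says nothing on stability, since its smallest possible p is 0.00216, or 0.108 for a lone pair among 50 after adjustment, and fewer than 3 pairs cannot be called by it. Relatives called stayed at 0 in every alternative.

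The replicate numbers were not taken to pair the mice. Over 36 pairs of libraries with the same number in different groups, deviations from the group means had a mean correlation of 0.00 (-0.25 to 0.15), and 6 pairs exceeded 0.1. Among 180 pairs with other numbers the mean was -0.0001 (-0.31 to 0.24), and 26 pairs exceeded 0.1. These values pool all groups, and pairing between single groups was not tested. With a replicate block, 32 miRNAs were called at 24 h and 1 (miR-143-3p) at 72 h, and 1 arm pair at 24 h.

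The comparisons rest on 6 mice per group, with an SE of 0.50 for each difference of the log2 arm ratio, and the 3p arm had from 33 to 364 counts per library. The Control libraries belong to the 6 h arm of the experiment, and with 1 tube of serum EVs per mouse the source of the RNA was not measured. As far as the sources used here state, reads were not collapsed to molecules, and counting intervals are then too narrow if PCR copies are common.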
